A study of Mus musculus with 12 samples.

Results

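The genes described here are 31 genes of cholesterol and fatty acid synthesis, chosen by name from the pathway, with earlier results of these data known. They are 31 of 23253 genes in the deposited table, and all 31 were among the 17909 genes that passed the filter on low counts and were tested. Their levels were measured by RNA sequencing in cells labelled as cortical neurons of C57BL/6 mice, sorted by flow cytometry, in 4 groups of 3 libraries. Adult control libraries 1 to 3 came from adult animals, and P4 libraries 4 to 6 from control animals whose label P4 is not spelled out. Stroke libraries 4 to 6 came from adult animals with a focal cortical stroke, made by shining cold light on the exposed skull for 15 min after rose bengal, a dye that clots vessels when lit. Libraries 1 to 3 of the siRNA-labelled group came from adult animals with such a stroke and an siRNA against GDF10, a secreted TGF-beta family protein whose role in axonal sprouting the series addresses. The growth text calls the mice adult in every group, P4 included. The labels give no time after stroke and no control siRNA, and nothing says that the libraries of a group came from separate animals, so p-values measure only the spread between these libraries.

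Cells make cholesterol from acetyl-CoA through mevalonate, squalene and lanosterol, and make fatty acids from the same precursor. Both pathways are switched on by SREBP transcription factors, which SCAP escorts out of the endoplasmic reticulum when sterols are low and which INSIG proteins hold back. In brain, growing neurons make their own sterols, whereas in the adult much of the synthesis serves astrocytes and the myelin of oligodendrocytes.

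The libraries differed in ways that touch the results. Total counts ran from 10517638 to 48633350, with the lowest in adult control 3. That library stood apart: its log2 CPM correlated at 0.753 and 0.681 with adult control 1 and 2, against 0.902 between those and 0.873 to 0.989 within the other groups. Gdf10 was near the detection limit in the adult groups: the siRNA-labelled libraries held 8, 7 and 1 counts and the stroke libraries 0, 5 and 0, so no lower level of the target shows in the siRNA-labelled libraries. The 45S pre-rRNA entry took 2.08% to 2.72% of counts in adult control 2, the stroke libraries 4 to 6 and siRNA-labelled library 3, and 0.00984% to 0.427% in the other 7. All stroke libraries were thus of the high kind and all P4 libraries of the low kind. Against the label of sorted neurons, 12 oligodendrocyte markers took 3.48% to 9.12% of counts in adult control, 4.93% to 6.02% in stroke, 5.93% to 10.02% with the siRNA label and 0.0110% to 0.0278% in P4. The 15 pan-neuronal markers took 0.243% to 0.682%, 0.200% to 0.264%, 0.196% to 0.305% and 0.742% to 0.872% of counts in the same order. In such bulk samples, fewer cells of a type and less RNA per cell cannot be told apart.

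Together the 31 genes took 0.461% to 0.969% of counts in adult control, 0.651% to 0.715% in stroke, 0.565% to 0.803% with the siRNA label and 0.301% to 0.423% in P4. Scd2, a desaturase that makes monounsaturated fatty acids and is abundant in myelinating cells, carried most of this in the adult groups. It held 63.3% to 73.5% of the summed level of the 31 genes in the 9 libraries of adult animals and 8.64% to 19.4% in P4. On the scale of CPM per kb (CPM being read counts scaled to a library of fixed size, and kb a kilobase of exon), Scd2 was highest of the 31 in adult control at 942, followed by Scd1 at 78.5 and Hmgcs1 at 54.9. In P4 the order was Hmgcs1 at 203, Scd2 at 102 and Cyp51 at 49.9 CPM per kb. The lowest levels per kb in adult control were those of Tm7sf2 at 0.859 and Mvk at 1.04, and in P4 those of Ebp at 0.733 and Srebf1 at 1.04.

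**Figure D1:**
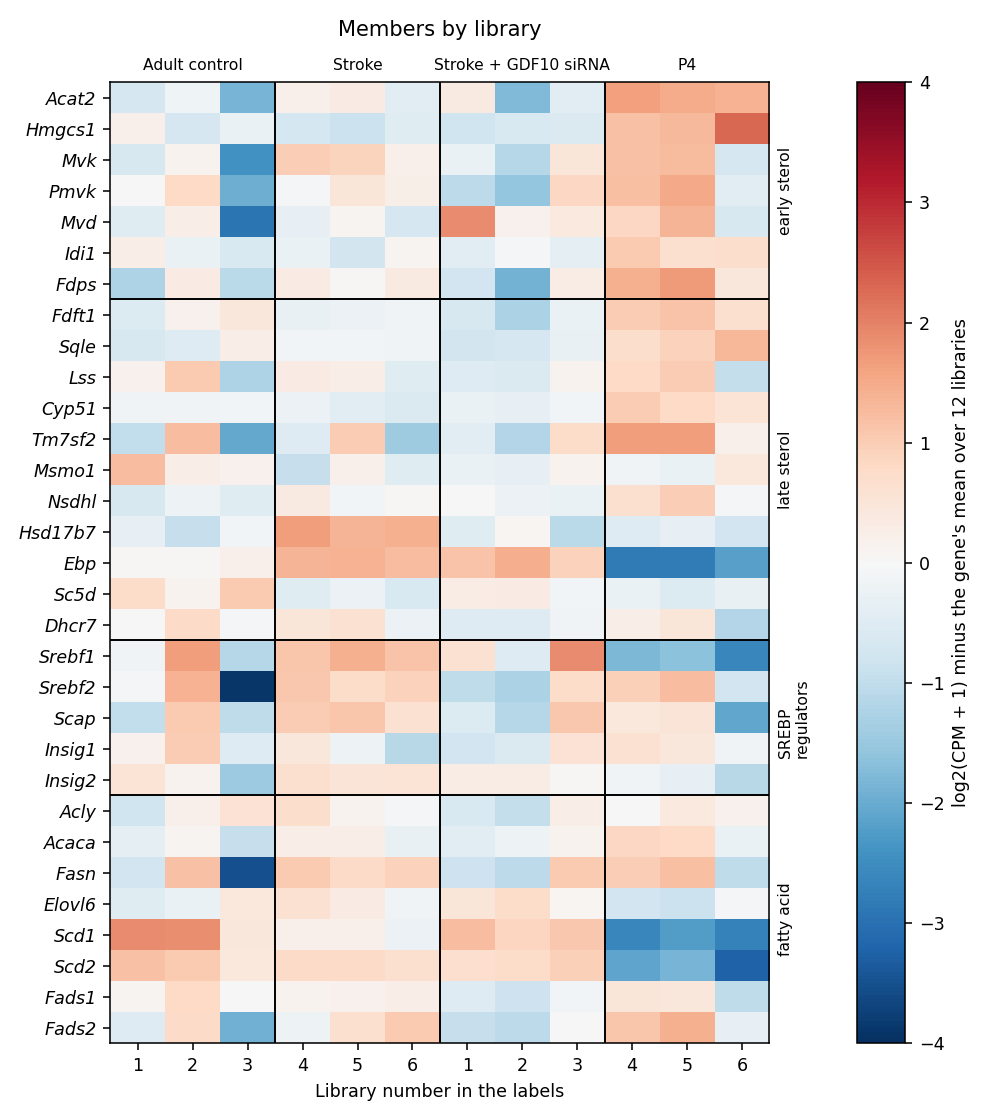
Rows are the 31 genes in order of their role and columns the 12 libraries, with colour giving log2(CPM + 1) minus the gene's mean over all 12 libraries. Early sterol enzymes are red in P4 4 and 5, as they are in P4 6 except for Mvk, Pmvk and Mvd, Hsd17b7 is clearly red only in stroke, Ebp, Srebf1, Scd1 and Scd2 are blue in P4, and adult control 3 is deep blue for Srebf2, Fasn and Mvd.

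In stroke against adult control, Hsd17b7 was the gene of the 31 that rose. It encodes a sterol 3-ketoreductase that works in the removal of the C4 methyl groups of lanosterol, and lies on chr1:169949535-169969241 on the minus strand of mm10. Its level was 64.1, 42.6 and 75.7 CPM in adult control 1, 2 and 3 and 264, 212 and 219 CPM in stroke 4, 5 and 6. Every stroke library lay above every adult control library, and the gap was wider than the range within either group. The log2 fold change was 1.93 (SE 0.36, n = 3 per group), a 3.81-fold higher level, with an edgeR adjusted p of 0.0243. That is 1 of 31 genes called, beside 0.704% of all genes tested (0.486% higher). The call depended on the setting. The adjusted p was 0.0554 with edgeR's relative log expression (RLE) factors for scaling and 0.0789 when only these 6 libraries were fitted. It was 0.0844 to 0.119 without adult control 1 or without stroke 4, 5 or 6. The authors' deposited table gives a false discovery rate of 0.000531. Among libraries with a high 45S share, adult control 2 had 42.6 CPM, siRNA-labelled library 3 had 37.9 CPM and the stroke libraries had 211.5 to 264 CPM. The part of 45S share was not tested with 1 such library in each of those 2 groups.

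The promoters of 4 of the called genes are shown. They are those of Hsd17b7, which differed between stroke and adult control, and of Ebp, Hmgcs1 and Srebf1, which differed between P4 and adult control. Each is 200 bases of RefSeq sequence on GRCm38.p6, read 5′ to 3′ on the gene's strand, from 250 to 51 bases before the transcript start. Capitals mark a CCAAT box (CCAAT or ATTGG), a GC box (GGGCGG or CCGCCC) or, in Hmgcs1 alone, the sterol regulatory element TCACNCCAC. All 4 windows hold a CCAAT box, whereas Acat2, also called in P4, has none and is not shown. The windows lie at chr1:169969256-169969455 (minus strand), chrX:8193563-8193762 (minus), chr13:119690101-119690300 (plus) and chr11:60222632-60222831 (minus, the first of several Srebf1 starts).
Hsd17b7: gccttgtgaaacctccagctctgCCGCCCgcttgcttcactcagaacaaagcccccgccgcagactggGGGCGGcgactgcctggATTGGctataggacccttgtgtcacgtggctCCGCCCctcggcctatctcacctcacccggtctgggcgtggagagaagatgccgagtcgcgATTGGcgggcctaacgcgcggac
Ebp: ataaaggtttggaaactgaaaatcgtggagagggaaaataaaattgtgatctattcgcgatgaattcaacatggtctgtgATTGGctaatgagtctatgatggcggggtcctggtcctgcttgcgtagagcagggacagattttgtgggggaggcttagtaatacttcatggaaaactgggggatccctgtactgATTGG
Hmgcs1: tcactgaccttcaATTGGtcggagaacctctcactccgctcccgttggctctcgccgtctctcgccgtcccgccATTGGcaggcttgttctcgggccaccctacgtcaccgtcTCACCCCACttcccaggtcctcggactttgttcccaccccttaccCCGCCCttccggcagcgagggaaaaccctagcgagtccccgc
Srebf1: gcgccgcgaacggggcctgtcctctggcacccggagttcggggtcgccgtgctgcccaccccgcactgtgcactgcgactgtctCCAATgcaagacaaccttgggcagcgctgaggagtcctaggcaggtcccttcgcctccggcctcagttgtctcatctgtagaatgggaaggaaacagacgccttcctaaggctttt

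Over the whole 250 bases before the start, both strands read, 25 of the 31 genes had a RefSeq entry. Fdps, Fdft1, Sqle, Scd1, Scd2 and Fads1 had none. CCAAT, the core bound by NF-Y, was present in 19 of 25 and in 37.5% of all 27025 genes with an entry. Its longer form GCCAAT, which contains it, was present in 15 of 25 against 15.3%. GGGCGG, the GC box bound by Sp1, was present in 21 of 25 against 35.4%. TCACNCCAC was found in Hmgcs1 only, 1 of 25 against 1.22% of genes, and the palindrome TCACGTGA in 0 of 25 against 0.907%. Where a gene had several starts, a match in any of them counted. The 27025 genes were not limited to those that passed the filter on low counts, whereas all 31 genes here did. A match is a description of the letters in this window. Of the 6 without CCAAT, Acat2 rose in P4 and the others (Scap, Acly, Acaca, Elovl6 and Fads2) were called in no comparison by the main edgeR test. Of the 19 with CCAAT, Hmgcs1, Cyp51, Hsd17b7, Ebp, Sc5d and Srebf1 were called in a comparison, and the rest in none. Whether a match goes with a call was not tested.

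The other late sterol enzymes did not pass in stroke, and they pointed both ways. Ebp, the sterol isomerase on chrX:8185329-8193512 of mm10, was at 15.4, 15.6 and 17.5 CPM in adult control and 39.6, 40.4 and 36.4 CPM in stroke, with no overlap between the groups. Its log2 fold change of 1.26 (SE 0.42) had an edgeR adjusted p of 0.181. Sc5d, the desaturase that follows Ebp in the pathway, was at 94.7, 61.3 and 116 CPM in adult control and 39.9, 47.0 and 36.6 CPM in stroke, again without overlap. Its log2 fold change was -1.14 (SE 0.34, adjusted p 0.145). Msmo1, the C4 methyl oxidase, had -0.98 (SE 0.41, adjusted p 0.262) and overlapping groups. Of the 11 late sterol enzymes, 5 had a positive and 6 a negative value, with a median of -0.03.

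Scd1, a stearoyl-CoA desaturase, was the fatty acid gene with the smallest p in stroke. It was at 489, 482 and 181 CPM in adult control and 152, 151 and 111 CPM in stroke. Stroke was lower in every library, though adult control 3 lay close to the stroke range. The log2 fold change was -1.48 (SE 0.36) with an edgeR adjusted p of 0.0866, which was 0.00811 without adult control 3 and 0.0798 to 0.357 without any other library. The authors' deposited table gives a false discovery rate of 0.0195 for this gene. Its neighbour and close paralog Scd2 did not differ beyond its spread, at 6163, 5635 and 3652 CPM in adult control and 4594, 4598 and 4271 CPM in stroke (log2 fold change -0.20, SE 0.33, adjusted p 0.797), and reads shared by the pair cannot be assigned with certainty. Fads2, the delta-6 desaturase, had 0.78 (SE 0.68, adjusted p 0.599), and 0.33 without adult control 3 or 1.75 without adult control 2.

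**Figure D2:**
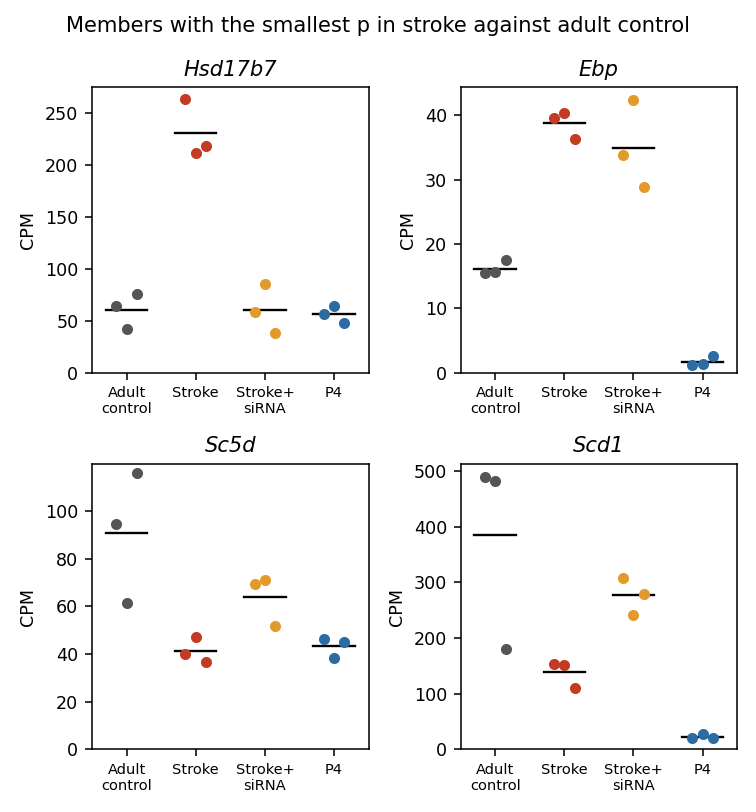
CPM of 4 genes on linear axes that start at 0, with 1 point per library and a bar at the mean of each group of 3. Hsd17b7 lies above 200 CPM in stroke and below 90 CPM in each other library, Ebp is high in both stroke groups and near 0 in P4, and Sc5d and Scd1 are lower in stroke than in adult control.

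No early sterol enzyme or SREBP regulator was called in stroke against adult control by the edgeR test, with 0 of 7 and 0 of 5, beside 0.704% of all genes tested. At an unadjusted p under 0.05 in that test there were 0 of each, beside 15.9% of all genes tested. DESeq2 called 4 of the 31 genes, Hsd17b7, Ebp, Sc5d and Scd1, and so none of these 12. Mvk, mevalonate kinase, had the smallest p of the early enzymes, at 2.78, 5.47 and 0.114 CPM in adult control and 10.7, 10.03 and 5.86 CPM in stroke. The groups did not overlap, but the values were low and the log2 fold change of 1.64 carried an SE of 0.98 (adjusted p 0.430). It was 1.10 without adult control 3 and 2.56 without adult control 2. Acat2, which joins 2 acetyl-CoA units at the head of the pathway, had 0.83 (SE 0.54, adjusted p 0.467), and 0.48 without adult control 3 or 1.26 without adult control 2. Of the regulators, Insig2 had 0.61 (SE 0.48, adjusted p 0.558) and Scap 0.90 (SE 0.74, adjusted p 0.578). Insig2 ran from 0.21 without adult control 3 to 1.03 without adult control 1, and Scap from 0.56 without adult control 3 to 2.01 without adult control 2. With the 45S class of the library as a term in the fit, a term chosen after the data were seen, Scap turned to -0.084. That term rests on adult control and the siRNA-labelled group, each with 1 high and 2 low libraries. The stroke libraries were all high and the P4 libraries all low.

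Over all 31 genes the median log2 fold change in stroke was 0.27, beside -0.08 over all genes tested. It ran from 0.08 without adult control 3 to 0.70 without adult control 2, and it was -0.23 with the 45S class as a term. Scaling by RLE factors moved all genes by a median of -0.10 in this comparison and of -0.12 in stroke against P4. Groups did not overlap for 7 of the 31 genes, beside 20.0% of all genes tested. The share of counts on 10 oligodendrocyte precursor markers was 0.196% to 0.499% in adult control, 0.576% to 0.864% in stroke, 0.323% to 0.409% with the siRNA label and 0.0825% to 0.149% in P4, with no marker at 0 in any library. It was highest in the group where Hsd17b7 was highest, and its part in that result was not tested. The 12 astrocyte markers took 0.436% to 0.645% of counts in adult control and 0.0883% to 0.124% in stroke. They took 0.0894% to 0.154% with the siRNA label and 0.0383% to 0.0636% in P4. In stroke against adult control, 4 of the 12 had a positive and 8 a negative value. Sc5d and Scd1 were lower in stroke than in adult control, and higher with the siRNA label than in stroke. The part of these markers was not tested.

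Against stroke, the siRNA-labelled group shared the pattern of Hsd17b7 with adult control. Its libraries 1, 2 and 3 had 58.5, 85.2 and 37.9 CPM, all below the lowest stroke library and on both sides of the adult control values. The log2 fold change against stroke was -1.94 (SE 0.36), a 3.82-fold lower level, with an edgeR adjusted p of 0.301. Against adult control it was -0.01 (SE 0.35, adjusted p 0.998). Hsd17b7 ranked 4 of 17909 by p against stroke, in a comparison where 1 gene of all those tested was called. The adjusted p was 0.0258 with only these 6 libraries in the fit and 0.00188 with DESeq2, but 0.301 to 0.881 in the 6 fits without 1 library, and the authors' deposited table gives a false discovery rate of 0.0113. Both comparisons use the same stroke libraries, so the value against stroke does not stand apart from the rise over adult control.

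By the edgeR test, 0 of 31 genes were called in the siRNA-labelled group against stroke, beside 0.00558% of all genes tested. At an unadjusted p under 0.05 there were 2, Hsd17b7 and Scd1, beside 7.37%, and DESeq2 called 1, Hsd17b7. Scd1 was at 309, 241 and 279 CPM in the siRNA-labelled libraries, each above every stroke library and within the range of adult control. Its log2 fold change was 1.00 (SE 0.36, adjusted p 0.594). Sc5d was at 69.1, 71.2 and 51.8 CPM, also above each stroke library, with 0.64 (SE 0.34, adjusted p 0.707). Ebp, by contrast, overlapped stroke, at 33.8, 42.3 and 28.9 CPM, with -0.15 (SE 0.41, adjusted p 0.951). Groups did not overlap for 8 of 31 genes, 3 higher (beside 7.77% of all genes tested) and 5 lower (beside 8.11%). The 14 microglia and macrophage markers took 0.214% to 0.423% of counts in the siRNA-labelled group, 0.0458% to 0.154% in stroke and 0.0762% to 0.130% in adult control, with 0 to 2 of them at 0 in a library. Against stroke, 14 of 14 had a positive value, with a median of 1.67 and 0 called. Their part in these differences was not tested.

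The remaining roles gave wide errors against stroke. Mvd, the decarboxylase that makes isopentenyl pyrophosphate, was at 27.0, 7.47 and 8.81 CPM in the siRNA-labelled group and 5.01, 7.01 and 3.75 CPM in stroke. Its log2 fold change was 1.45 (SE 1.05, adjusted p 0.779) and rested largely on library 1, with 0.63 when that library was left out. Fdps, which makes farnesyl pyrophosphate, had -0.81 (SE 0.62, adjusted p 0.788). Srebf2, the factor tied most closely to sterol genes, had -1.16 (SE 0.91, adjusted p 0.794), Scap -0.82 (SE 0.74, adjusted p 0.832) and Fads2 -1.22 (SE 0.69, adjusted p 0.728). The median over the 31 genes was -0.35, beside 0.04 over all genes tested, and was -0.01 with the 45S class as a term. Fdps and Scap changed sign with that term, to 0.04 and 0.22.

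Between the siRNA-labelled group and adult control, the edgeR test called 0 of 31 genes, beside 0.117% of all genes tested (0.0838% higher and 0.0335% lower), with 1 at an unadjusted p under 0.05, beside 8.36%, and 0 called by DESeq2. That gene was Ebp, at 1.12 on the log2 scale (SE 0.42, adjusted p 0.469) and no overlap between the groups. Ebp was thus higher than in adult control in all 6 libraries from animals with stroke, by 1.26 and 1.12 on the log2 scale, and passed in neither comparison, both of which use the same control libraries. Other values were 1.79 for Mvd (SE 1.06, adjusted p 0.703), -0.47 for Hmgcs1 (SE 0.34, adjusted p 0.786), -0.76 for Fdft1 (SE 0.36, adjusted p 0.599) and -0.83 for Fads1 (SE 0.40, adjusted p 0.606). Elovl6, which lengthens palmitate, had 0.51 (SE 0.35, adjusted p 0.760) and 0.82 without adult control 3, and the regulators Insig1 and Srebf2 had -0.50 (SE 0.50, adjusted p 0.866) and -0.51 (SE 0.90, adjusted p 0.938). The median was -0.15, beside -0.02 over all genes tested. Groups did not overlap for 4 of 31 genes, 1 higher (Ebp, beside 6.35%) and 3 lower (Msmo1, Dhcr7 and Fads1, beside 4.47%).

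In P4 against adult control, 4 of the 31 genes rose and 5 fell. That is 9 of 31, beside 16.8% of all genes tested (6.32% higher and 10.4% lower), and 13 were at an unadjusted p under 0.05, beside 29.3%. The 4 that rose, Acat2, Hmgcs1, Sqle and Cyp51, are enzymes between acetyl-CoA and the first steps after lanosterol. The 5 that fell were Ebp and Sc5d at the end of the sterol pathway, the regulator Srebf1, and the desaturases Scd1 and Scd2. At a false discovery rate under 0.05 the authors' deposited table also gives 9 of 31, 5 higher and 4 lower. It has Fdps (0.0360) among them and not Sc5d (0.0640). Marker levels of other cell types differ between these groups as well, and their part and that of the P4 label cannot be told apart.

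The early sterol enzymes were all higher in P4 by their estimates, with 7 of 7 positive, a median log2 fold change of 1.73 beside -0.16 over all genes tested, and 2 called. Hmgcs1, which makes HMG-CoA, was at 336, 181 and 239 CPM in adult control and 652, 710 and 1433 CPM in P4. All P4 libraries lay above all others, and P4 6 stood well above the other two. The log2 fold change was 1.89 (SE 0.35, edgeR adjusted p 0.00156). Acat2 was at 19.7, 28.1 and 8.10 CPM in adult control and 101, 90.6 and 84.5 CPM in P4, again without overlap. Its log2 fold change was 2.30 (SE 0.56, adjusted p 0.0106). Fdps, at 6.98, 22.2 and 7.76 CPM against 49.1, 59.8 and 24.7 CPM, missed the threshold with 1.85 (SE 0.64, adjusted p 0.0611). It was called with RLE factors (0.0449), by DESeq2 (0.00991) and without adult control 2 (0.0210). Fdps reads cannot be told from those of an annotated gene, Gm43738, that overlaps it on the same strand. Mvk, Pmvk, Mvd and Idi1 had values of 1.73, 1.06, 1.46 and 1.02, none called.

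The late sterol enzymes split within the pathway. Sqle, squalene epoxidase, was at 57.4, 62.7 and 107 CPM in adult control and 147, 171 and 225 CPM in P4, and rose by 1.26 (SE 0.33, adjusted p 0.0162). Cyp51, lanosterol demethylase, was at 114, 115 and 119 CPM against 256, 219 and 185 CPM, and rose by 0.92 (SE 0.27, adjusted p 0.0294). Ebp was at 1.24, 1.31 and 2.54 CPM in P4, below each of the 9 adult libraries, and fell by 3.27 on the log2 scale (SE 0.46, adjusted p 0.000149). Sc5d was at 46.1, 38.3 and 45.1 CPM in P4 and fell by 1.07 (SE 0.34, adjusted p 0.0419). Hsd17b7, the gene that rose in stroke, was at 56.6, 64.3 and 47.7 CPM, inside the range of adult control (log2 fold change -0.11, SE 0.35, adjusted p 0.873). Cyp51 and Fdft1 share some bases with Akap9 and Ctsb on the opposite strand, and the strand setting of the counting is not given in the sources used here.

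Not all of these calls held when a library was left out. Acat2, Hmgcs1, Ebp, Scd1 and Scd2 were called in all 6 such fits and with only the 6 libraries compared. Sqle was lost without adult control 1 (0.0707) or adult control 2 (0.0526), and Cyp51 without adult control 1 (0.0818), adult control 2 (0.0643), P4 4 (0.150) or P4 5 (0.0907). Sc5d was kept in 1 of 6, without adult control 2, and was 0.0759 to 0.169 in the others.

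**Figure D3:**
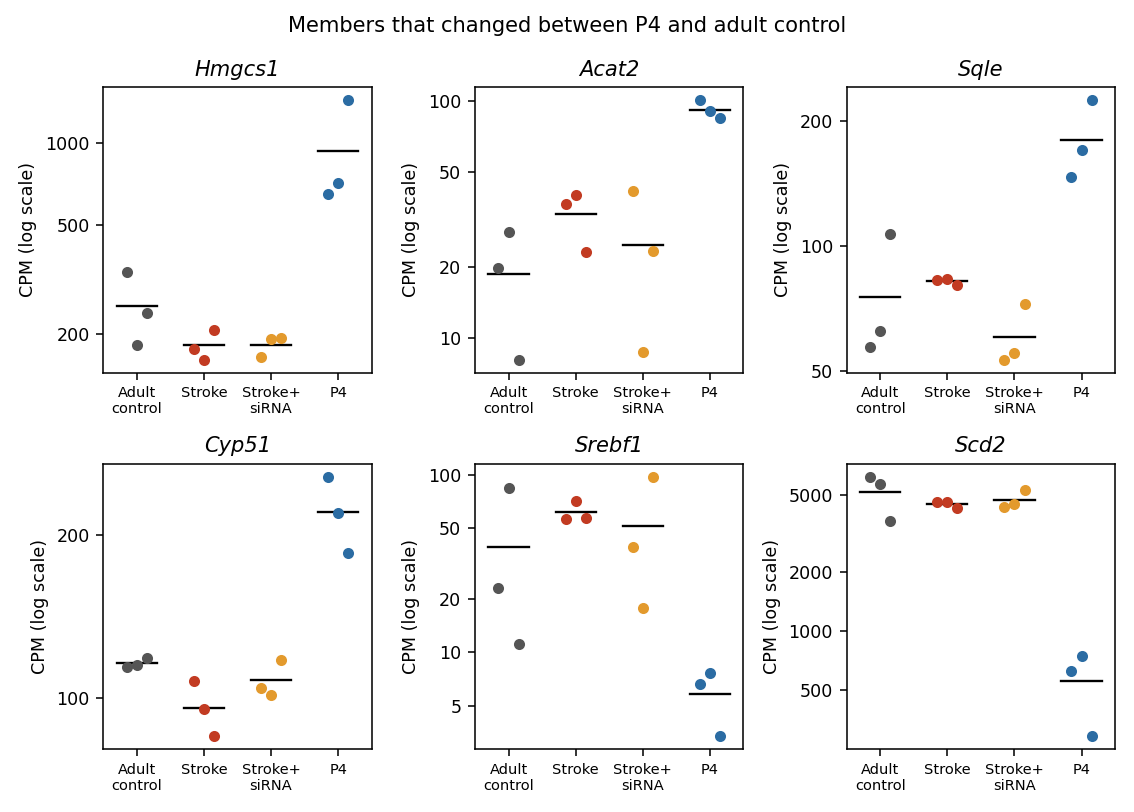
CPM of 6 genes on log axes, with 1 point per library and a bar at the mean of each group of 3. Hmgcs1, Acat2, Sqle and Cyp51 lie above every adult library in P4, and Srebf1 and Scd2 lie below every adult library, with Srebf1 spread from 11.06 to 83.6 CPM within adult control.

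Of the SREBP regulators, Srebf1 was called in P4. The gene, which gives the SREBP-1 forms that drive fatty acid genes, was at 22.96, 83.6 and 11.06 CPM in adult control and 6.59, 7.59 and 3.36 CPM in P4. No P4 library reached the lowest adult one, and adult control 3 lay closer to P4 than to adult control 2. The log2 fold change was -2.74 (SE 0.72, adjusted p 0.0166). Without adult control 2 it was -1.53 with an adjusted p of 0.110, it was also lost without P4 4 (0.0546) or P4 6 (0.0629), and it was -1.63 with the 45S class as a term. Srebf1 also shares bases with Rai1 on the opposite strand. Srebf2, Scap, Insig1 and Insig2 had values of 0.42, -0.05, -0.02 and -0.45, with adjusted p from 0.583 to 0.984.

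Scd1 and Scd2 fell in P4. Scd1 was at 20.8, 27.3 and 19.5 CPM in P4 and fell by 4.09 on the log2 scale (SE 0.40, edgeR adjusted p 7.13e-06). Scd2 was at 627, 748 and 289 CPM and fell by 3.21 (SE 0.36, adjusted p 2.11e-05). Neither overlapped any adult library. The other 6 fatty acid genes were not called, and they did not share the fall: Acaca and Fasn, the carboxylase and synthase that build palmitate, had 0.88 (SE 0.38, adjusted p 0.140) and 0.70 (SE 0.84, adjusted p 0.631), and Elovl6 had -0.48 (SE 0.35, adjusted p 0.397). Scd1, Scd2 and Ebp fell in the group where all 12 oligodendrocyte markers also fell, with a median log2 fold change of -8.26, and where 13 of 14 microglia and macrophage markers fell. Those markers' part in the fall was not tested.

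Over all 31 genes the median in P4 was 0.42, and groups did not overlap for 13, beside 32.1% of all genes tested. Leaving out 1 library moved the median from 0.05 (without P4 5) to 0.94 (without adult control 2). With the 45S class as a term the median was 0.97 and 13 genes were called, with Fdps, Acaca, Fasn and Fads2 added to the same 9. Fitting only these 6 libraries called 5.

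**Figure D4:**
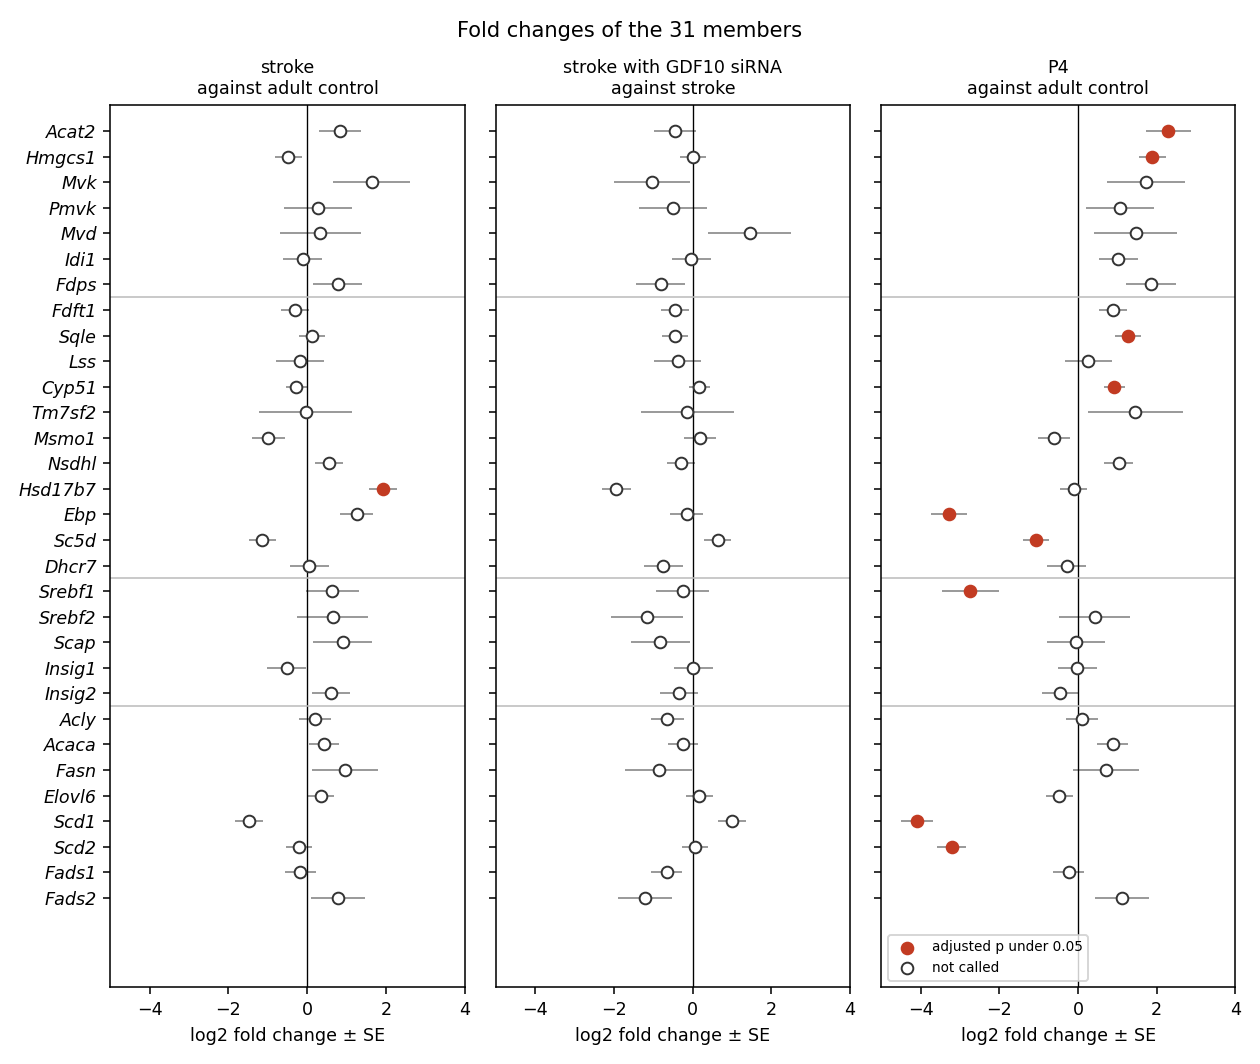
Log2 fold changes with their SE for the 31 genes in 3 comparisons, each point 1 gene and red where the edgeR adjusted p was under 0.05. In stroke against adult control 1 point is red, in the siRNA-labelled group against stroke none, and in P4 against adult control 9, with all 7 early sterol enzymes right of 0.

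Stroke against P4 uses the same libraries as the comparisons above and gives their values side by side. Of 31 genes 9 were called, 5 higher and 4 lower in stroke, beside 18.8% of all genes tested (10.8% and 7.94%), and groups did not overlap for 14, beside 44.4% (22.6% higher and 21.7% lower). Hsd17b7 was 2.04 higher on the log2 scale (SE 0.36, adjusted p 0.000860), whereas it did not differ beyond its spread between P4 and adult control. Ebp was 4.54 higher (SE 0.48, adjusted p 9.64e-06), Scd1 2.62 (SE 0.38, adjusted p 0.000155) and Scd2 3.02 (SE 0.36, adjusted p 2.68e-05). Srebf1 was 3.39 higher (SE 0.74, adjusted p 0.00440), and 1.35 higher with an adjusted p of 0.209 with the 45S class as a term. Class and group coincide in this comparison, so the term was carried over from adult control and the siRNA-labelled group. Hmgcs1 was lower in stroke, at -2.36 (SE 0.36, adjusted p 0.000222), Cyp51 at -1.20 (SE 0.27, adjusted p 0.00570), Sqle at -1.13 (SE 0.33, adjusted p 0.0248) and Fdft1, squalene synthase, at -1.18 (SE 0.36, adjusted p 0.0308). Fdft1 was lost without any 1 of 5 libraries and Sqle without any 1 of 4. The median was -0.34, beside -0.04 over all genes tested, and was -1.10 with the 45S class as a term, carried over in the same way.

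How far the 31 genes varied among libraries of 1 group differed by gene and by group. Fasn was at 90.8, 348 and 12.5 CPM in adult control, 323, 263 and 293 CPM in stroke, 86.3, 74.6 and 322 CPM with the siRNA label and 304, 357 and 75.6 CPM in P4. The high values in adult control and the siRNA-labelled group were in the libraries with a high 45S share, and the 3 stroke libraries, all of that kind, lay close together. Those high libraries also had the most counts of their group, 36009796 in adult control 2 and 33082818 in siRNA-labelled library 3. P4 4 and 5 had high Fasn with a low 45S share, and had 48633350 and 46028261 counts against 17544485 in P4 6. Depth and 45S share were not tested apart. Srebf2 followed the order of Fasn in adult control, at 38.4, 109 and 1.82 CPM, and Scap at 17.2, 74.7 and 16.8 CPM. Cyp51 did not, at 114, 115 and 119 CPM. The ratio of the highest to the lowest library was over 3 for 12 of 30 genes in adult control (Mvd, with 1 library at 0, had no ratio), 2 of 31 in stroke, 10 of 31 with the siRNA label and 10 of 31 in P4. In P4 the low library was P4 6 for each of these 10, whose 45S share was the lowest of all at 0.00984%.

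These spreads went with base composition. The GC content of the 31 transcripts ran from 41.9% to 59.6%. In adult control the 13 genes with a ratio over 3 or a library at 0 had a median GC of 57.0%, and the other 18 had 47.7%. Across genes, the rank correlation of the ratio with GC was 0.649 in adult control, 0.731 with the siRNA label and 0.769 in P4, and 0.0809 in stroke. The genes share libraries and are not independent, so this is a description. It was taken over these genes only, not over all genes tested. In adult control the largest ratios, of Tm7sf2 (86.7), Srebf2 (59.8) and Mvk (47.9), rested on 1, 16 and 1 counts in adult control 3. Tm7sf2 and Mvk were also the lowest per kb in adult control, and the parts of level and GC were not tested apart. Of the genes called in a comparison, Acat2 was over 3 in adult control (3.47) and with the siRNA label (4.80), as was Srebf1 (7.56 and 5.47). The other called genes, Hsd17b7, Ebp, Scd1, Scd2, Hmgcs1, Sqle, Cyp51, Sc5d and Fdft1, were not over 3 in any group. The part of GC content in the differences between groups was not tested for any of the 31 genes.

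**Figure D5:**
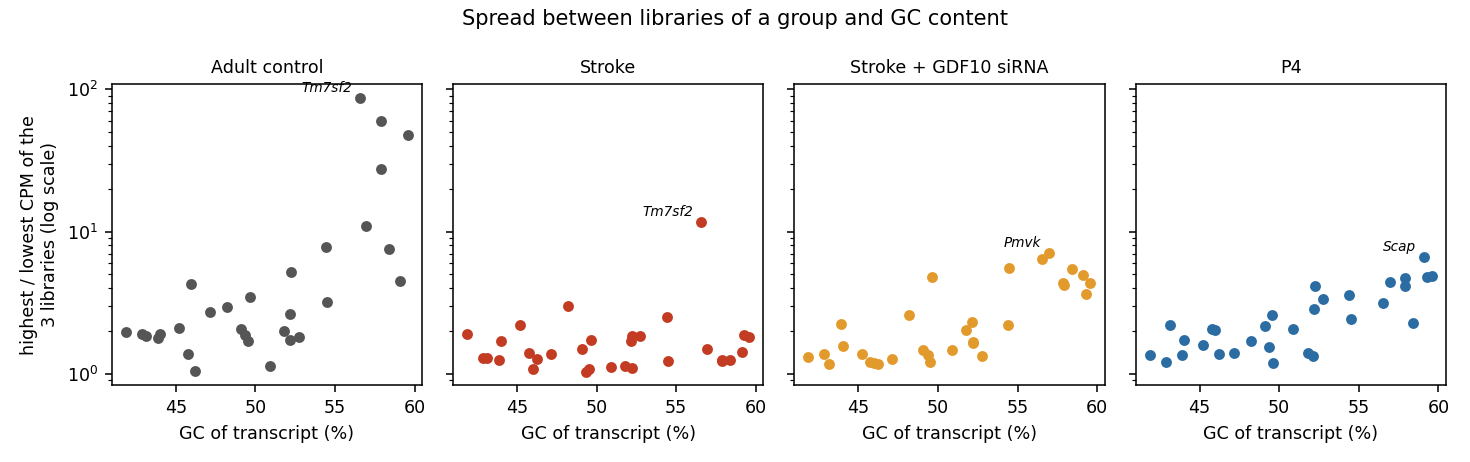
Each point is 1 of the 31 genes, with transcript GC content on the x axis and the ratio of the highest to the lowest CPM among the 3 libraries of a group on a log y axis, 1 panel per group. The ratios climb above about 50% GC in all groups but stroke and stay low in stroke, where Tm7sf2 is the highest point.

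Other genes of lipid metabolism were read as 3 lists. In stroke against adult control the edgeR test called 0.704% of all genes tested (0.486% higher), and 15.9% were at an unadjusted p under 0.05. Of 16 other sterol and isoprenoid genes, 0 were called and 0 were at an unadjusted p under 0.05. Idi2 had the smallest p (log2 fold change -4.10, SE 2.02, adjusted p 0.337). Of 21 other fatty acid and complex lipid genes 0 were called and 7 were at an unadjusted p under 0.05. Dgat2, which makes triglycerides, had the smallest p (2.45, SE 0.66, adjusted p 0.113). Of 16 transport, storage and efflux genes 1 rose, Apod, a lipid-binding lipocalin. It went from 653 ± 302 CPM (SD, n = 3) to 5751 ± 1541 CPM, or up by 3.14 on the log2 scale (SE 0.48, adjusted p 0.00683). In the siRNA-labelled group 0 of these 53 genes were called against stroke or adult control by the edgeR test. At an unadjusted p under 0.05 there were 1 and 5, beside 7.37% and 8.36% of all genes tested. The smallest p per list against stroke were those of Mbtps2 (0.81, adjusted p 0.693), Dgat2 (-1.19, 0.708) and Abca1 (1.22, 0.549), and against adult control those of Mbtps2 (0.76, 0.661), Elovl7 (0.94, 0.455) and Apod (2.44, 0.0606).

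In P4 against adult control, 3 of the 16 other sterol genes were called, 2 higher and 1 lower, beside the 16.8% of all genes tested. Among them, Mbtps2, a protease that frees SREBP from its membrane, rose by 1.37 (SE 0.41, adjusted p 0.0339), and Cyp27a1, a sterol hydroxylase, fell by 6.96 (SE 1.07, adjusted p 0.000326). Of the 21 other fatty acid and complex lipid genes 9 fell and 0 rose, with a median of -1.57, the smallest p being those of Fa2h, Elovl7 and Ugt8a, with log2 fold changes of -6.65, -4.89 and -6.25. Fa2h and Ugt8a make myelin lipids. Of the 16 transport genes 7 fell, with Apod, Npc1 and Abca1, a carrier, an endosomal cholesterol transporter and a cholesterol exporter, at -8.18, -3.86 and -3.12. These genes fell in the group where oligodendrocyte markers were lowest, as given above, and the part of cell make-up was not tested. In stroke against P4, 4 of 16 (2 higher and 2 lower in stroke), 11 of 21 and 8 of 16 (all higher) were called, beside the 18.8% of all genes tested. The smallest p of each list were those of Cyp27a1 (6.00), Fa2h (7.47) and Apod (11.32).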

How the data were processed

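RNA from 12 libraries was prepared with the Zymo RNA-Microprep kit and the Ovation RNA-seq System, which amplifies cDNA, and read as paired 69 bp ends, per the labels' protocols. CASAVA 1.8.2, edgeR and the mm10 build are named in the submitters' processing notes. Which aligner, counter, annotation and strand option were used is not given in the sources used here. Raw read counts for each gene were deposited by the authors. The authors' log2 fold changes and false discovery rates (adjusted p-values) for pairs of groups, in the same deposited table, were quoted where named. A further 30 columns of per-sample values were not used. One count column of the P4 group carries the name P3 and was assigned through its library number.

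Counts were fitted with edgeR 4.0.16 (R 4.3.3): filterByExpr by group, TMM factors, 1 mean per group over all 12 libraries, a quasi-likelihood test, and Benjamini-Hochberg adjustment over the 17909 genes tested. A gene was called at an adjusted p under 0.05. SE is the absolute log2 fold change over the square root of F. CPM are counts divided by the TMM-scaled library size. DESeq2 1.42.0 and edgeR's RLE factors in place of TMM were alternatives, and the test was tried on simulated counts. Lengths and overlaps came from GENCODE M21, which uses the coordinates of mm10, and promoters from RefSeq. Of the genes listed, Hmgcs1 and Msmo1 had no Entrez identifier in the table and were matched by symbol.

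The 31 genes and the other lists were chosen with earlier results of these data known. In each comparison the called genes of a role were named, or the 2 with the smallest p where none was called; of the other lists, up to 3 called per direction or the 1 with the smallest p; in stroke against P4 the 1 with the smallest p, and 1 gene that the rule selects is not reported here. Ebp, Sc5d, Msmo1 and Scd2 in stroke, Ebp in the siRNA-labelled group against stroke, Hsd17b7 and Scd1 in that group against adult control, Fdps and the uncalled genes given in P4, and the genes used to show the spread between libraries were named after their values were seen. Adult control and siRNA-labelled libraries share the numbers 1 to 3, and stroke and P4 libraries 4 to 6. The deviations of same-numbered libraries correlated at 0.06, -0.19 and -0.34, and at 0.16, 0.01 and 0.15, so the numbers were not taken as pairs. Intervals for single libraries were not computed; amplified reads do not each stand for a separate molecule.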

Additional observations from a re-analysis of the deposited data

How the results depend on the processing

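Each group had 3 libraries, and no test separated depth from the spread between them. In stroke against adult control, genes called (126 of all tested) became 41 with the 45S class as a term (chosen after the data were seen), 1414 by DESeq2, 43 with only those 6 libraries and 31 to 548 without 1 library. Genes of the 31 called (1) became 0 with RLE factors, 0 with only those 6, 4 by DESeq2 and 0 to 2 without 1 library. Their median (0.27) became -0.23 with the 45S term and 0.083 to 0.70 without 1 library. In the siRNA-labelled group against stroke, genes called (1) became 0 with RLE factors, 2 with no filter and 0 with the 45S term. They became 195 by DESeq2, 88 with only those 6 and 0 to 0 without 1 library. Of the 31, 1 was called by DESeq2 and 1 with only those 6, and the median became -0.013 with the 45S term. In P4 against adult control, genes called (3001) became 4656 by DESeq2, 1639 with only those 6 and 1852 to 3099 without 1 library, members called (9) 5 with only those 6, and the median (0.42) 0.97 with the 45S term and 0.055 to 0.94 without 1 library. In the siRNA-labelled group against adult control, genes called (21) became 13 with RLE factors, 40 with no filter and 40 with the 45S term. They became 381 by DESeq2, 0 with only those 6 and 5 to 25 without 1 library, and the median ran from -0.49 to 0.37 without 1 library. In stroke against P4, where 45S class and group coincide, genes called (3359) became 2049 and the median -1.10 with the 45S term. Signs turned with the 45S term for Scap in stroke (-0.084) and for Fdps (0.036) and Scap (0.22) in the siRNA-labelled group against stroke. Against adult control, values without 1 library ran from -0.33 to 0.24 for Hsd17b7, -1.05 to 0.0080 for Insig1 and -1.48 to 0.79 for Srebf2, the last 2 turning without adult control 2. The causes were not tested.

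With the library number as a replicate block, 0 genes were called in the siRNA-labelled group against adult control, and in stroke against P4 4567 genes and 12 of the 31. Same-numbered libraries did not deviate together in every pair, so the block is not read as a pairing.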
